A study of Mus musculus with 9 samples.

Results

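Periportal sinusoidal endothelial cells line the upstream end of the liver sinusoids, the wide capillaries that carry blood from the portal tracts to the central vein. In single-cell RNA-seq of mouse liver 350 of 8562 cells were assigned to them by a gate on counts of unique molecular identifiers (UMIs, 1 per captured transcript). A cell entered with at least 200 detected genes and at least 4 of 8 sinusoidal endothelial genes (Ptprb, Kdr, Clec4g, Gpihbp1, Dnase1l3, Bmp2, Gpr182 and Ehd3). It also needed at least 1 UMI of the periportal genes Ntn4, Efnb2, Dll4 or Adgrg6 and 0 UMIs of the pericentral genes Wnt2, Wnt9b, Rspo3 and Kit. Cells with 2 or more UMIs of Vwf, a gene of larger vessels, or 5 or more of the macrophage genes C1qa, C1qb and C1qc were left out. The members were thus selected on the UMI counts of these 20 genes, and values of these genes are given only as a description.

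Sinusoidal endothelium is fenestrated, clears macromolecules through scavenger receptors and is zonated along the blood flow. Its periportal end meets oxygen-rich, higher-shear blood and is marked by Notch ligands and ephrin-B2, as arterial endothelium is. Its pericentral end produces Wnt ligands and R-spondin 3, which maintain the hepatocytes around the central vein. Dll4 is a Notch ligand, Efnb2 is the ephrin ligand that marks arterial endothelium, Ntn4 encodes the secreted guidance protein netrin 4, and Adgrg6 encodes an adhesion G protein-coupled receptor.

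The 9 libraries came from collagenase-dissociated whole livers of C57BL/6 mice fed doxycycline food. The methods of the study describe this preparation, with dispase and collagenase, as an isolation of non-hepatocyte cells. Shares of all cells below are shares of such a suspension and not of the whole liver. In the 2 WT libraries the mice carried the ROSA26-rtTA-IRES-EGFP allele without tetYAP and received doxycycline for 7 days. The 4 YAP3d and the 3 YAP7d libraries carried tetYAP in addition, a doxycycline-inducible transgene of the Hippo pathway co-activator YAP, induced for 3 and 7 days respectively. The paper gives the transgene as YAP S127A, a constitutively active form with a mutated inhibitory phosphorylation site. The methods of the study list an Alb-CRE driver and a floxed rtTA allele in this cross. The albumin promoter is active in hepatocytes, and expression of the transgene in endothelial cells was not examined here. WT thus shares the doxycycline food with YAP7d but was not fed for the same time as YAP3d. The labels do not state that each library came from its own mouse, and p-values measure only the spread between these libraries.

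The members were unevenly spread over the libraries. WT held 50 and 104, YAP3d 14, 6, 23 and 146, and YAP7d 3, 2 and 2. The 7 YAP7d cells are therefore described one by one below, and every YAP7d mean of these cells rests on 2 or 3 cells a library.

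The periportal genes were sparse within the members. Ntn4 (chr10:93641049-93745972 in the GRCm38.p6 mouse assembly, the build of every position given here) was detected in 209 members, at 311 and 283 CPM in WT, 221, 42.3, 199.7 and 226 CPM in YAP3d and 33.6, 0 and 44.0 CPM in YAP7d (CPM, counts per 1000000 UMIs summed over the members of a library). Dll4 (chr2:119325784-119335666) was detected in 168 members, at 166 and 148 CPM in WT, 147, 338, 155 and 132 CPM in YAP3d and 134, 45.3 and 88.1 CPM in YAP7d. Efnb2 (chr8:8617235-8661242) was detected in 117 members, at 152 and 103 CPM in WT, 221, 0, 66.6 and 87.8 CPM in YAP3d and 33.6, 90.5 and 44.0 CPM in YAP7d. Adgrg6 (chr10:14402583-14545723) was rare, with 19 members and no UMI in YAP7d. A single gene of the 4 was seen in 227 members, and all 4 were seen together in 3.

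Several of the 8 sinusoidal gate genes were lower in the YAP7d members, although these had to pass the same limit. The lectin gene Clec4g was 4028 and 4840.3 CPM in WT, 5110.4, 5878, 4306 and 3531 CPM in YAP3d and 1209, 1041 and 881 CPM in YAP7d. The endocytic gene Ehd3 was 2506 and 2403 CPM in WT, 2463, 2622, 2652 and 1725 CPM in YAP3d and 906, 272 and 529 CPM in YAP7d. The extracellular nuclease Dnase1l3 was 3412 and 3321 CPM in WT, 3548, 3468, 2941 and 2699 CPM in YAP3d and 1209, 1448 and 793 CPM in YAP7d. For these 3 genes, and for Ptprb and Gpr182, each YAP7d library lay below every other library, while Kdr, Gpihbp1 and Bmp2 overlapped with them. The gate was thus applied to cells with lower levels of some of its genes in YAP7d, and the part of this in the shares of cells was not tested.

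Many members lay at the zonal limit and most lay well inside the sinusoidal one. Of the 350 members, 164 held exactly 1 periportal UMI, 84 held 2, 36 held 3 and 66 held 4 or more. All 8 sinusoidal genes were detected in 255, 7 in 45, 6 in 20, 5 in 12 and exactly 4 in 18. Just outside the gate were 178 cells with a single pericentral UMI, 21 with 3 of the 8 sinusoidal genes, 22 excluded by C1q and 7 excluded by Vwf.

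Several endothelial and sinusoidal markers that the gate did not use were detected in most members with 7 or 8 of the sinusoidal genes. Among these 300 cells, Cdh5, the adherens junction cadherin of endothelium, was detected in 86.7% and Egfl7, a secreted endothelial protein, in 95.7%. The scavenger receptors Stab2 and Mrc1 were detected in 90.7% and 94%, and Fcgr2b, the inhibitory Fc receptor of sinusoidal endothelium, in 97%. Others were detected less often, Pecam1 in 77.3%, the lymphatic and sinusoidal receptor Flt4 in 65.3%, Tie1 in 54.7%, Clec1b in 52.3%, Lyve1 in 38.3% and the transcription factor Erg in 38%. Ptprc, the pan-leukocyte gene, was detected in 8%. The 32 cells with 5 or 6 of the genes were intermediate, with Cdh5 in 46.9%, Stab2 in 46.9% and Ptprc in 28.1%.

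**Figure D1:**
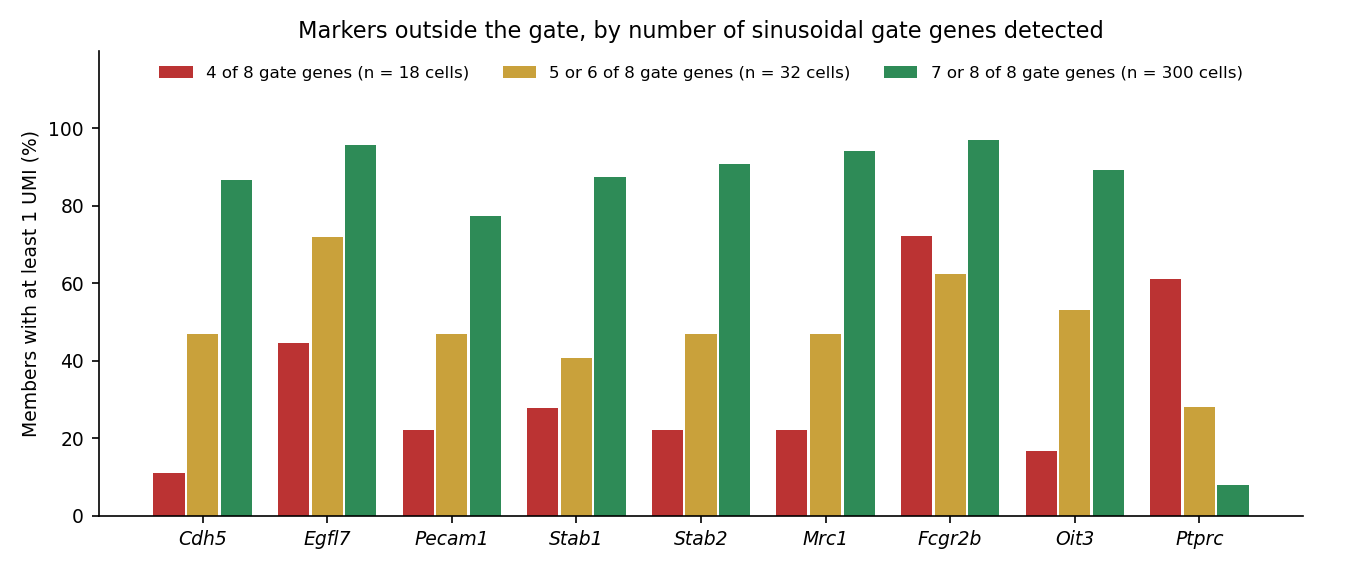
Share of members (%) with at least 1 UMI of each of 9 marker genes outside the gate, for members with 4 (18 cells), 5 or 6 (32 cells) and 7 or 8 (300 cells) of the 8 sinusoidal genes. Cdh5 is seen in 11.1%, 46.9% and 86.7% of the 3 sets, and Ptprc in 61.1%, 28.1% and 8%.

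The 18 cells with exactly 4 of the genes went against the name. Cdh5 was detected in 11.1% of them, Stab2 in 22.2% and Ptprc in 61.1%, at a median of 8261 UMIs per cell against 3890 in the 300 cells. Several genes of other cell types came almost wholly from the pair of members highest in each. Such a pair held 96.9% of 772 Spp1 UMIs (a gene of bile duct cells), 95.7% of 441 Dcn UMIs (a stellate cell and fibroblast gene) and 93.6% of 4001 S100a8 UMIs (a neutrophil gene). The count of genes called is therefore also given with at least 7 of the 8 genes required, an alternative added after the data were seen.

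Library totals ran from 1314878 to 25056881 UMIs. The members' median depth was 2283 to 4318 UMIs per cell in WT and YAP3d and 7617 to 11351 in YAP7d. In the members the summed CPM of the neutrophil and erythroid markers was 111 and 1195 in WT, 73.5, 169, 122 and 10497 in YAP3d and 33.6, 0 and 881 in YAP7d, and that of the macrophage markers was 256 and 1552, 294, 381, 1431 and 2701, and 537, 679 and 1542. Scrublet called 5 members doublets, and 2 members had a barcode that occurs in more than 1 library. Transcripts of the predicted gene Gm10709 exceeded 1 UMI per 10000 in YAP3d 1 and 2 and in all YAP7d libraries but in no other. All YAP7d and no WT libraries had them, so between these groups whatever they mark cannot be told apart from YAP7d. A term for these libraries was tried in the fit, and it is estimated from the differences among the YAP3d libraries alone.

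The share of periportal cells among all cells with at least 200 genes was lower in each YAP7d library than in any other. It was 9.60% and 7.34% in WT, 4.98%, 1.36%, 5.45% and 5.72% in YAP3d, and 0.501%, 0.434% and 0.109% in YAP7d. The means were 8.47 ± 1.59% (SD, n = 2), 4.38 ± 2.04% (n = 4) and 0.348 ± 0.210% (n = 3), and the groups did not overlap. An exact two-sided permutation test over the 3 groups gave p = 0.00873, which was 0.105 after Benjamini-Hochberg adjustment over the 12 tests of shares computed. The pairwise exact permutation tests gave p = 0.1 for YAP7d against WT, the smallest value that 3 against 2 libraries allow, p = 0.0667 for YAP3d against WT, also the smallest possible, and p = 0.0571 for YAP7d against YAP3d (adjusted p = 0.2 for each, permutation tests). In YAP7d 3 the exact Clopper-Pearson 95% interval of the share was 0.0132 to 0.393%, and in WT 1 it was 7.21 to 12.5%, intervals that cover counting error only. In dissociated tissue, fewer cells of a type, a lower recovery of them and more cells of other types cannot be told apart. The share also depends on the detection of the gate genes, several of which were lower in YAP7d. The tests therefore do not speak to cell numbers alone.

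**Figure D2:**
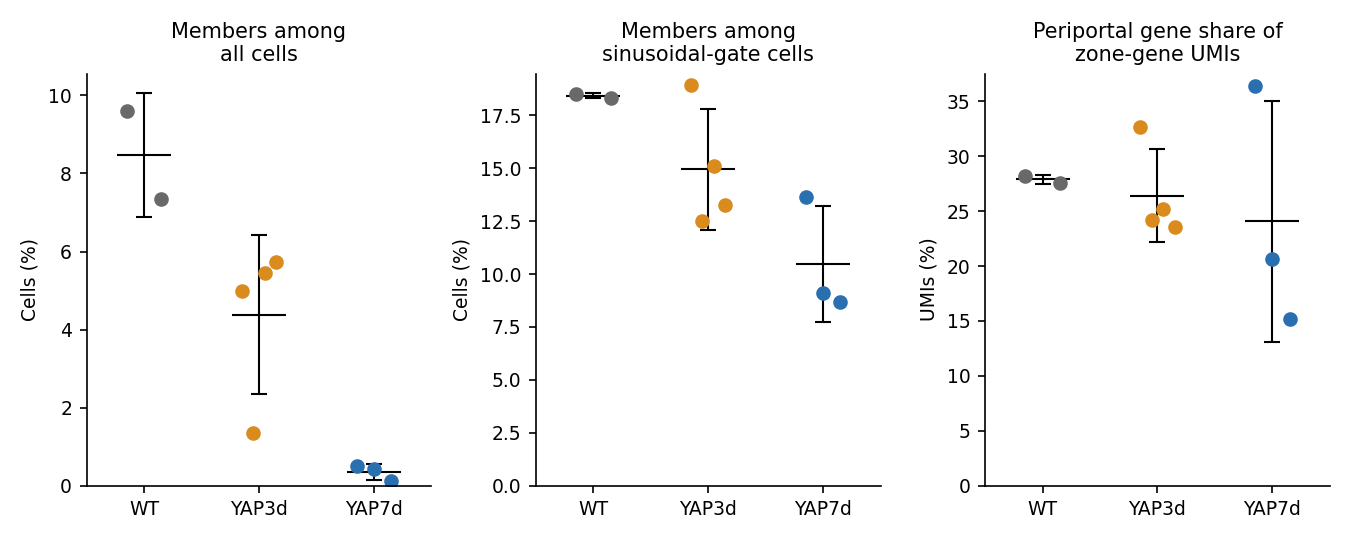
Periportal cells as a percentage of all cells (first panel) and of cells passing the sinusoidal gate (second panel), and the periportal percentage of the UMIs of the 4 periportal and 4 pericentral genes (last panel). Points are libraries and bars are means with SD (WT n = 2, YAP3d n = 4, YAP7d n = 3); the groups are apart in the first panel (0.109 to 0.501% in YAP7d) and overlap in the last (15.2 to 36.4% in YAP7d).

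Sinusoidal cells are those that passed the sinusoidal, Vwf and C1q limits whatever their zonal genes. The periportal share among them was again lower in each YAP7d library than in WT, while YAP7d and YAP3d overlapped. It was 18.5% and 18.3% in WT, 18.9%, 12.5%, 15.1% and 13.3% in YAP3d, and 13.6%, 9.09% and 8.70% in YAP7d, from 22, 22 and 23 cells. The difference to WT was -7.96 percentage points for YAP7d (exact permutation p = 0.1, adjusted p = 0.2), beside -8.12 points among all cells. For YAP3d it was -3.47 points, with overlapping libraries (exact permutation p = 0.267, adjusted p = 0.4). This share rests on the detection of the zonal gate genes, whose levels also moved in YAP7d. The tests therefore cannot tell a change in zone makeup from a change in these genes. Sinusoidal cells of every zone were few in the YAP7d libraries, of 599, 461 and 1834 cells.

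A measure that does not assign single cells overlapped between the groups. It is built on gate genes and is given without a test. Of the UMIs of the 8 zonal genes in sinusoidal cells, the 4 periportal genes made up 28.2% and 27.6% in WT, 32.7%, 24.2%, 25.2% and 23.6% in YAP3d, and 36.4% (20 of 55), 20.6% (13 of 63) and 15.2% (14 of 92) in YAP7d. The YAP7d libraries lay on both sides of WT.

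Depth and the macrophage limit moved with the YAP7d shares. With each cell thinned to 2000 UMIs before the gate, 4, 1 and 3 YAP7d cells passed, and the difference to WT was -7.57 points among all cells (exact permutation p = 0.1) and -11.4 among sinusoidal cells (p = 0.2, permutation test). The C1q limit removed 66.2% (45 of 68) of the sinusoidal cells of YAP7d 3, 21.4% in each of YAP7d 1 and 2, and at most 11.1% in the other libraries. With C1q limited to 0.1% of a cell's UMIs instead, 3, 3 and 5 YAP7d cells were members.

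The zonal genes themselves are given in sinusoidal cells as a description. Mean Ntn4 was 93.8 CPM in WT, 78.0 in YAP3d and 10.8 in YAP7d, which is 11.5% of WT. Efnb2 and Dll4 in YAP7d stood at 58.6% and 54.5% of their WT means. The pericentral Wnt2 stood at 36.9% of WT, and Kit and Rspo3 stood at 57.6% and 59.8%. Wnt9b was low throughout, at 3.92 CPM in WT and 4.12 in YAP7d, and Adgrg6 had no UMI in YAP7d. Apart from Wnt9b, genes of both zones were thus at lower means in YAP7d.

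The periportal cells were next compared with pericentral cells, which passed the same limits but held at least 1 pericentral and no periportal UMI (724 over all libraries). The 6 WT and YAP3d libraries entered as blocks, since YAP7d libraries held too few members. Periportal cells numbered 154 in WT and 189 in YAP3d, and pericentral cells 269 and 429. Median depth was 3828.5 and 3969 UMIs per periportal and 4035 and 4720 per pericentral cell in WT and YAP3d. Of 3309 genes tested, 183 (5.53%) passed an adjusted p of 0.05 in the quasi-likelihood test of edgeR, 88 higher (2.66%) and 95 lower (2.87%) in periportal cells. With at least 7 of the 8 sinusoidal genes required 196 were called. Of the 183, 154 were tested there, 125 were called again and 29 were not tested. Fitted apart, the WT libraries gave 128 calls and the YAP3d libraries 40, and the count was 79 without YAP3d 4 and 104 without WT 2.

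Most of the tested arterial and portal genes outside the gate were higher in periportal cells. Of 24 such genes 10 could be tested, 6 were called higher and none lower, beside 2.66% of all genes higher and 2.87% lower. The median log2 fold change was 0.98 against 0.00 over all genes. Efnb1 (chrX:99136061-99149022), a second ephrin-B ligand, ran from 122 to 302 CPM (median 201) in periportal cells and from 42.5 to 100.05 CPM (median 58.2) in pericentral cells (log2 fold change 1.90, SE 0.15, adjusted p = 8.96e-09). Every library was higher in periportal cells and the ranges did not overlap. Msr1 (chr8:39543232-39642750), a class A scavenger receptor, ran from 292 to 598 CPM (median 535) in periportal cells and from 71.6 to 277 CPM (median 163) in pericentral cells (log2 fold change 1.87, SE 0.15, adjusted p = 8.96e-09). Ltbp4 (chr7:27305140-27339720), which anchors latent TGF-beta in the matrix, ran from 338 to 799 CPM (median 703) in periportal cells and from 226 to 375 CPM (median 278) in pericentral cells (log2 fold change 1.19, SE 0.11, adjusted p = 1.03e-07). Both were higher in periportal cells of all 6 libraries, with ranges that overlapped for Ltbp4 and not for Msr1. The Notch target Hes1 (chr16:30065357-30067796) ran from 307 to 423 CPM (median 409) in periportal cells and from 153 to 263 CPM (median 228) in pericentral cells (log2 fold change 0.86, SE 0.11, adjusted p = 1.42e-05). The transcription factors Sox17 and Mecom, both of arterial endothelium, were also called, with log2 fold changes of 1.10 and 3.11.

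The promoter of Efnb1 is shown because Efnb1 did not overlap between the zones and because Notch acts through RBPJ, whose core motif TGGGAA occurs in it. The 250 bases before the start of Efnb1 (RefSeq, GRCm38.p6, chrX:99135811-99136060, plus strand) are printed with TGGGAA in capitals.
Efnb1 promoter: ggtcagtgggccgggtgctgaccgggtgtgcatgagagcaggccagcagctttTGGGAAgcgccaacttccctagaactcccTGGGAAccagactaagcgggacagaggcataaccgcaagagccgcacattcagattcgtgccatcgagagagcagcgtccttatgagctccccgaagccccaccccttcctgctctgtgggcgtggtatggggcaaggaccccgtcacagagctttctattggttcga
Both matches are on the plus strand. TGGGAA or its complement TTCCCA occurs in the same window of 24.1% of 27025 RefSeq promoters, of 22.7% of 2545 tested genes, of 28.8% of 59 genes higher in periportal cells and of 27.5% of 69 genes higher in pericentral cells, so the shares on the 2 sides lay close together. These shares cover only a part of the 3309 genes tested and of the 88 and 95 called. A match is a description of letters and not a binding site.

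**Figure D3:**
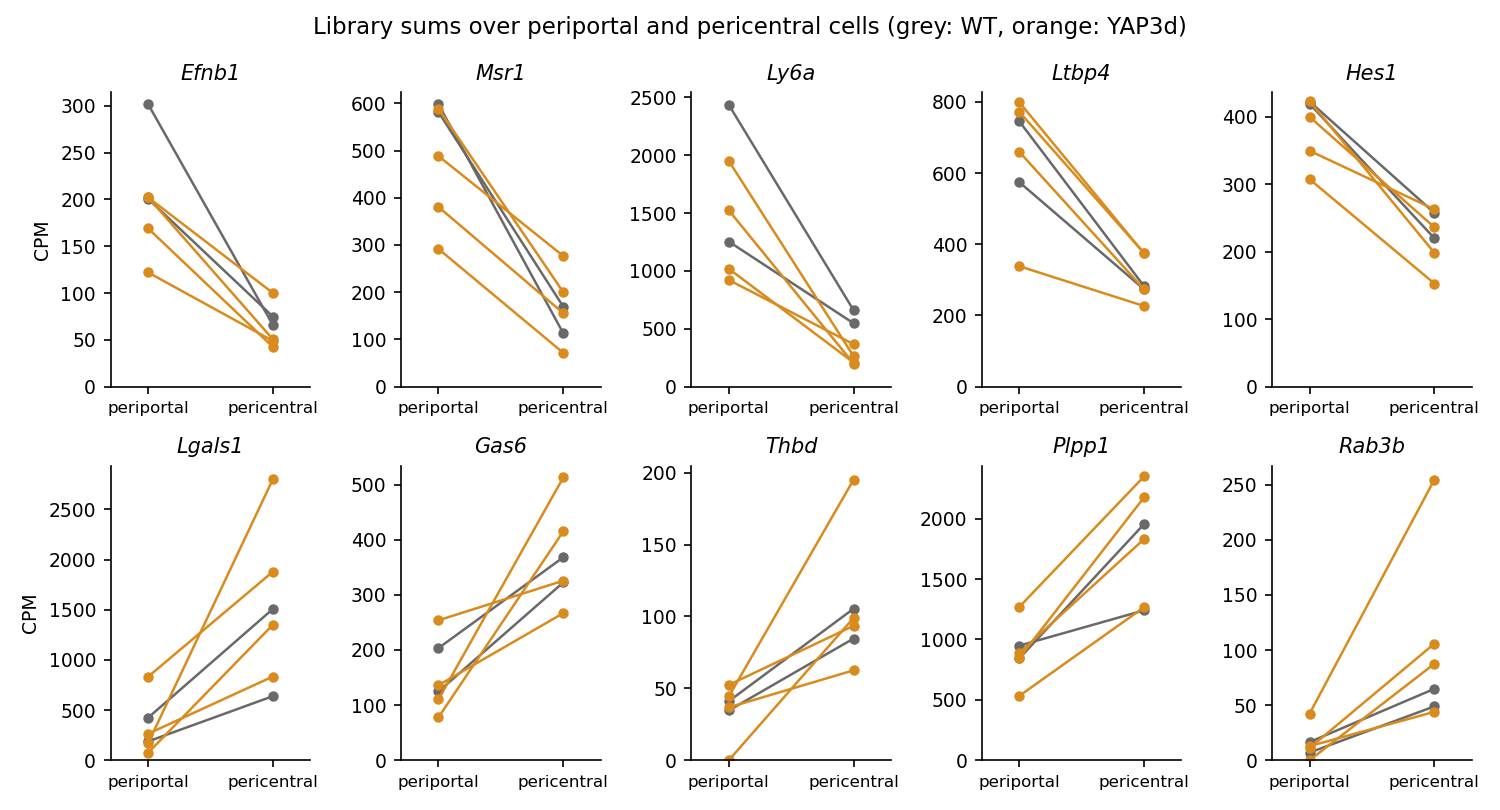
CPM of 10 genes in periportal and pericentral cells, with a line for each library (grey WT, n = 2; orange YAP3d, n = 4). Efnb1, Msr1, Ly6a, Ltbp4 and Hes1 are higher in the periportal cells of every library, and Lgals1, Gas6, Thbd, Plpp1 and Rab3b are higher in the pericentral cells.

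Some genes of other signalling lists were called, each of them higher, beside 2.66% of all tested genes called higher. Of 9 tested Notch pathway genes, Hes1 and the gamma-secretase component Psen2 (log2 fold change 0.54) were higher, with a median of 0.23; Psen2 was not called with 7 of the 8 sinusoidal genes required (edgeR adjusted p = 0.0595). Of 12 ephrin and semaphorin genes, Efnb1 and the semaphorin receptor Plxnd1 (0.70) were called (median 0.12). Of 8 BMP genes, the receptor Bmpr2 (0.94) and the inhibitory Smad6 (0.68) were higher (median 0.11). Among 23 endothelial transcription factors Sox17, Sox18 (0.52) and the hypoxia-inducible factor Epas1 (0.79) were higher (median 0.11). None of 6 VEGF receptor genes and none of 8 Hippo pathway genes was called.

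The surface antigen gene Ly6a (chr15:74994877-74998031), known as Sca-1, was among the genes with the largest changes. It ran from 921 to 2433 CPM (median 1388) in periportal cells and from 198 to 659 CPM (median 314) in pericentral cells (log2 fold change 1.93, SE 0.16, adjusted p = 8.96e-09). The other named genes higher in periportal cells were the tetraspanin Cd63 (2.25, and 1.48 with 7 of the 8 sinusoidal genes), the matrix protein Hmcn1 (1.62), the chemokine Cxcl9 (1.12), the atypical chemokine receptor Ackr1 (1.07), Serpina3g (1.01) and the dystrophin relative Utrn (1.01). Ackr1 is usually a venous gene and stood in the pericentral and venous list.

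Several pericentral and venous genes outside the gate were lower in periportal cells. Of 20 genes 11 were tested, 5 were lower and Ackr1 was higher, beside 2.87% of all genes lower and 2.66% higher. The list median was -0.51. The lower genes were Rab3b (-2.17), a GTPase of vesicle traffic, the anticoagulant receptor Thbd (-1.21), the lipid phosphatase Plpp1 (-1.06), the T-cadherin gene Cdh13 (-1.80) and the cyclooxygenase Ptgs1 (-1.07). Lgals1 (chr15:78926725-78930465), which encodes galectin-1, ran from 73.5 to 832 CPM (median 225) in periportal cells and from 638 to 2802 CPM (median 1429) in pericentral cells (log2 fold change -1.93, SE 0.19, adjusted p = 1.99e-07). Gas6 (chr8:13465374-13494535), a ligand of the TAM receptors, ran from 77.7 to 254 CPM (median 130.2) in periportal cells and from 267 to 513 CPM (median 347) in pericentral cells (log2 fold change -1.15, SE 0.15, adjusted p = 1.69e-05). Both were lower in the periportal cells of all 6 libraries, and the ranges overlapped for Lgals1 but not for Gas6. Olfm1 (-1.79), the leukotriene C4 synthase Ltc4s (-1.54), the junction gene Jup (-1.38), Rnase4 (-1.34) and the chromatin factor Anp32e (-1.45) were also named among the lower genes.

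Both classes had passed the same sinusoidal gate. Of 23 tested identity genes outside the gate 2 were called, beside 5.53% of all genes: the fatty acid receptor Cd36 was higher (0.70) and the hyaluronan receptor Lyve1 lower (-0.63) in periportal cells, with a median of -0.05. Of 15 tested capillary genes, Ly6a and Podxl (0.61) were higher and Plvap (-0.82) and Cd9 (-0.76) lower. Plvap forms the diaphragms of fenestrated capillaries.

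Of 20 interferon-stimulated genes 4 were higher in periportal cells, Ifit1 (1.75), Isg15 (1.15), Rsad2 (0.86) and Ifit3 (0.62), and the myeloid factor Irf8 (-1.54) was lower, beside 2.66% of all genes higher and 2.87% lower. The list median was 0.33. Among adhesion and chemokine genes, 3 of 9 were higher, Cxcl9, Vcam1 (0.86) and Jam2 (0.48). Of 10 angiocrine genes, the cytokine receptor chain Il6st (0.90) and the Kit ligand Kitl (0.97) were higher and Gas6 was lower. The laminin Lama4 (1.16) joined Ltbp4 among 11 matrix genes, and Crim1 (0.74) was the only called gene of 6 tested YAP targets.

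Of 6 MHC class II genes 3 were lower in periportal cells, H2-Ab1 (-1.38), H2-Aa (-1.24) and H2-DMa (-1.04), beside 2.87% of all genes. H2-Ab1 was lower in the periportal cells of 4 libraries and higher in those of 2. These genes moved with single libraries. Their summed CPM was 194, 6824, 202, 127, 233 and 10109 in the periportal and 12194, 7994, 138, 170, 350 and 15668 in the pericentral cells of WT 1, WT 2 and YAP3d 1 to 4. H2-Aa was not called by DESeq2 (adjusted p = 0.692). With 7 of the 8 sinusoidal genes required its log2 fold change was -0.92 (edgeR adjusted p = 2.28e-05). The part of leukocyte transcripts in this difference was not tested.

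**Figure D4:**
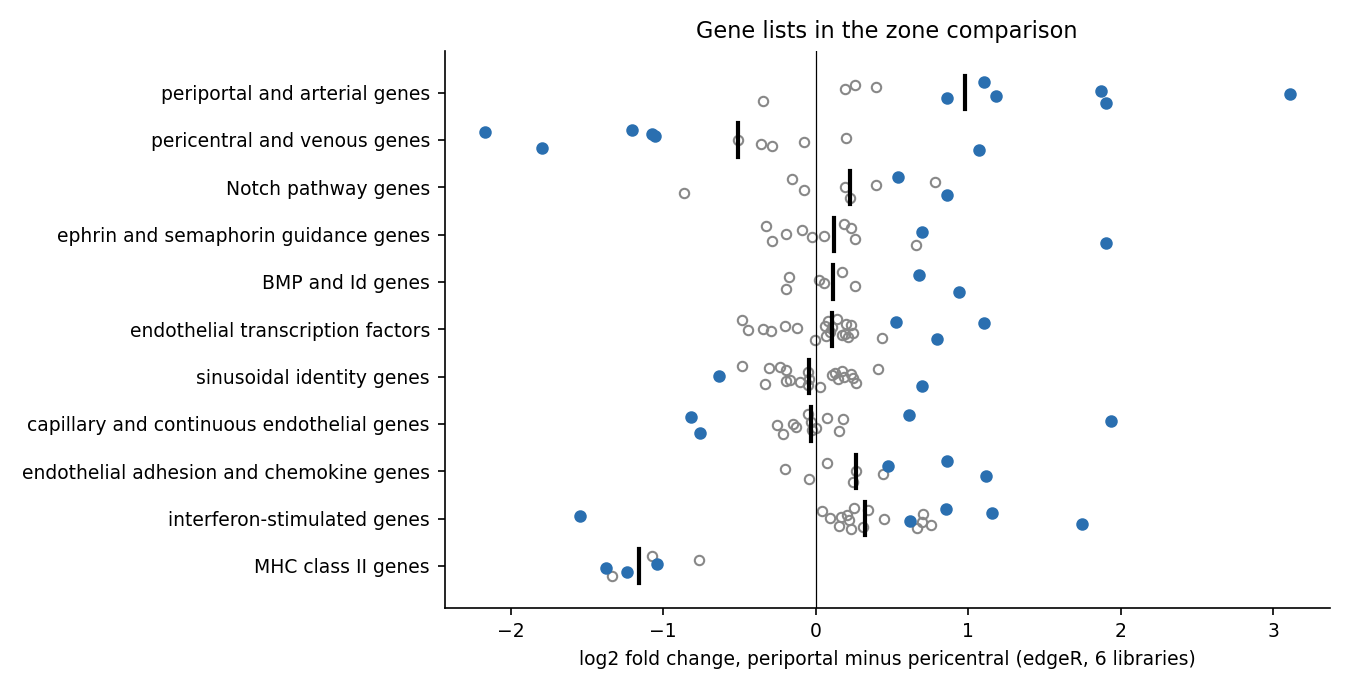
Log2 fold change of periportal over pericentral cells for the tested genes of 11 gene lists (filled points, adjusted p below 0.05 in edgeR; bars, list medians). The periportal and arterial list has a median of 0.98, the pericentral and venous list -0.51, and the sinusoidal identity list -0.05.

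Markers of other cells also differed between the zones. All 5 tested hepatocyte markers and both tested neutrophil markers were higher in periportal cells, as were the 1 tested cholangiocyte marker, Spp1, and the 1 tested stellate cell marker, Dcn, while 0 of 3 macrophage, 0 of 3 T and NK cell and 0 of 1 B cell markers were called. The summed cholangiocyte markers were at 819 CPM in periportal and 46.1 in pericentral cells of WT 2, and at 685 and 40.1 in YAP3d 4. S100a9 was higher in the periportal cells of 3 of 6 libraries. With 7 of the 8 genes required, S100a8 turned to -0.56 (edgeR adjusted p = 0.0429) and S100a9 to -0.35 (adjusted p = 0.305). None of the hepatocyte markers was called with 7 of the 8 sinusoidal genes required, whereas Efnb1 (1.78), Msr1 (1.82), Ly6a (1.80) and Ltbp4 (1.10) kept their log2 fold changes close to those above.

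After 3 days of YAP induction no gene of the periportal cells passed the threshold. Of 2383 genes tested between YAP3d and WT, 0 (0%) were called by edgeR, with 20 at an unadjusted p under 0.05, and DESeq2 called 0 with 10. Ltbp4 was 574 and 745 CPM in WT and 772, 338, 799 and 659.6 CPM in YAP3d (log2 fold change -0.04, SE 0.32). Msr1 (-0.52, SE 0.29), Efnb1 (-0.54, SE 0.30) and Sox17 (-0.58, SE 0.41) had negative values that did not pass. Stab2 (0.14, SE 0.33) and Fcgr2b (-0.02, SE 0.22) stood near 0. The 8 tested periportal and arterial genes had a median of -0.23, 16 interferon-stimulated genes -0.43 and 22 sinusoidal identity genes 0.01. In simulated counts of this design 91.4% of 116 genes with a log2 change of 2 were recovered. The simulation gave every gene the same spread between libraries and no library apart from the rest. The real counts differ in this, so the rate does not give the power of this comparison.

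The change from WT to YAP3d differed between periportal and pericentral cells for 5 of 3309 genes (0.151%; 4 upward, 0.121%, and 1 downward, 0.0302%), namely S100a8, S100a9, Ccl5, Gzma and Dcn. These are genes of neutrophils, lymphocytes and fibroblasts, not of endothelium. S100a8 had 3951 UMIs in the periportal cells of YAP3d 4 and 2 to 31 in those of the other WT and YAP3d libraries. With 7 of the 8 sinusoidal genes required, S100a8, S100a9 and Ccl5 were tested and not called, Dcn and Gzma were not tested, and 2 other genes were called, and 1 gene was called without YAP3d 4.

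The 7 YAP7d cells carried nearly all of the sinusoidal genes. They had 3068, 7617 and 19101 UMIs in YAP7d 1, 4308 and 17788 in YAP7d 2, and 5747 and 16955 in YAP7d 3. All 8 sinusoidal genes were detected in 5 of them, and 7 of the 8 genes in the others. Their periportal UMIs numbered 4, 1, 1, 1, 2, 3 and 1, with Ntn4 in 2 cells. Of the 7, 6 held 1 to 4 C1q UMIs and none was called a doublet. The cells differed in cell cycle transcripts. G2 and M phase genes summed to 3, 99 and 238 UMIs in the cells of YAP7d 1, to 3 and 12 in YAP7d 2 and to 10 and 46 in YAP7d 3.

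With every library admitted, a fit added after the cell numbers were seen, 46 of 1285 genes (3.58%) differed between YAP7d and WT in periportal cells, 13 higher (1.01%) and 33 lower (2.57%). Against YAP3d 56 of the same genes (4.36%) were called, 17 higher (1.32%) and 39 lower (3.04%). Both sets rest on the same YAP7d cells. With 7 of the 8 sinusoidal genes required 156 and 162 genes were called, which included all 46 and all 56. The YAP7d cells were the same cells under this limit, and only the other groups lost cells, so these calls are not independent of the first. A term for the libraries with Gm10709 transcripts left 4 calls against WT and 65 against YAP3d, and leaving out WT 2, YAP3d 3, YAP7d 2 or WT 1 left 4, 11, 13 and 14 against WT. A single UMI was worth 33.6, 45.3 and 44.0 CPM in the 3 YAP7d libraries.

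Several genes that were higher in periportal than in pericentral cells were low in the YAP7d cells. Ltbp4 was 574 and 745 CPM in WT, 772, 338, 799 and 659.6 CPM in YAP3d and 134, 45.3 and 0 CPM in YAP7d (5 UMIs in all; YAP7d minus WT log2 fold change -3.38, SE 0.63, adjusted p = 0.0209; minus YAP3d log2 fold change -3.36, SE 0.60, adjusted p = 0.0125). Il6st (chr13:112464070-112506860), the shared signalling chain of the interleukin-6 receptors, was 1045 and 1008 CPM in WT, 643, 592, 721 and 652 CPM in YAP3d and 101, 45.3 and 132 CPM in YAP7d (minus WT log2 fold change -3.51, SE 0.38, adjusted p = 0.000749; minus YAP3d log2 fold change -2.85, SE 0.37, adjusted p = 0.00338). No YAP7d library reached the lowest library of the other groups for either gene. Epas1 (chr17:86753864-86833410) was 449.9 and 343 CPM in WT, 313, 338, 388 and 272 CPM in YAP3d and 33.6, 45.3 and 44.0 CPM in YAP7d, 3 UMIs in all, which is 10.9% of the pooled WT level (95% counting interval 2.24 to 32.4%) and 14.0% of the YAP3d level (2.86 to 41.3%). Ly6a was 1253 and 2433 CPM in WT, 1949, 1522, 921 and 1018 CPM in YAP3d and 436, 45.3 and 529 CPM in YAP7d (minus WT log2 fold change -2.50, SE 0.55, adjusted p = 0.0369). Cxcl9 (-2.74), Bmpr2 (-2.68) and the disintegrin gene Adam23 (-2.34) were also lower than in WT. Efnb1 (-1.74, adjusted p = 0.115), Msr1 (-2.38, adjusted p = 0.0553) and Hes1 (-0.74, adjusted p = 0.276) did not pass the threshold against WT (edgeR).

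**Figure D5:**
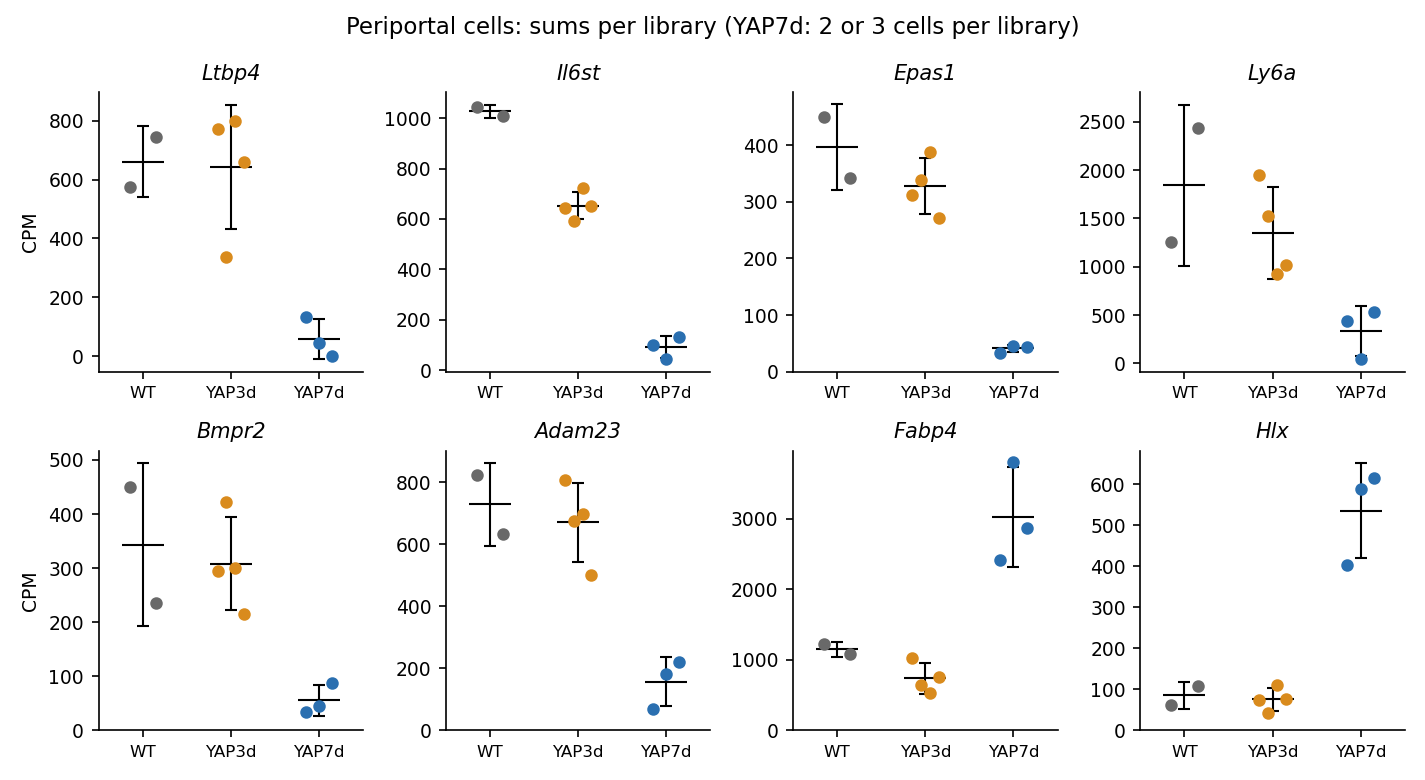
CPM of 8 genes in periportal cells by library, with group means and SD (WT n = 2, YAP3d n = 4, YAP7d n = 3 libraries of 2 or 3 cells). Ltbp4, Il6st, Epas1, Ly6a, Bmpr2 and Adam23 are lower in the YAP7d libraries and Fabp4 and Hlx are higher, with no overlap with WT.

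Some heat shock and immediate early genes were lower as well, 3 of 20 tested beside 2.57% of all genes. Hspa1b had no UMI in YAP7d and was at least 9.02-fold lower than in WT and at least 4.75-fold lower than in YAP3d, at a floor of 3 UMIs over the group. Hspa1a (log2 fold change -4.03) and Fos (-1.64) were the other called genes of this list, whose median was -0.68, and 7 of the 20 had positive values. Over all cells of a library, whatever their type, Hspa1a and Hspa1b together were at 12.5 and 10.3 CPM in YAP7d 2 and 3, at 485 CPM in YAP7d 1 and at 389 to 1646 CPM in WT and YAP3d. In the periportal cells of YAP7d 1 they were at 168 CPM, against 568 and 2487 in WT. The pair was thus low in all cells together in 2 of the 3 YAP7d libraries.

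Fabp4 and Hlx were higher in YAP7d than in both other groups. Fabp4 (chr3:10204342-10208616), a fatty acid binding protein of capillary endothelium, was 1218 and 1074 CPM in WT, 1029, 634, 522 and 749 CPM in YAP3d and 2417, 3802 and 2863 CPM in YAP7d (minus WT log2 fold change 1.33, SE 0.32, adjusted p = 0.0459; minus YAP3d log2 fold change 1.99, SE 0.27, adjusted p = 0.00338). The homeobox gene Hlx (chr1:184727143-184732493) was 62.3 and 109 CPM in WT, 73.5, 42.3, 111 and 76.4 CPM in YAP3d and 403, 588 and 617 CPM in YAP7d (minus WT log2 fold change 2.46, SE 0.40, adjusted p = 0.00894; minus YAP3d log2 fold change 2.61, SE 0.37, adjusted p = 0.0043). The YAP7d libraries lay above all others for both genes. Against YAP3d the pericentral gene Lgals1 was higher (log2 fold change 2.38, SE 0.58, adjusted p = 0.0373), at 187 and 423 CPM in WT, 73.5, 169, 832 and 263 CPM in YAP3d and 1276, 2489 and 2026 CPM in YAP7d. Macrophage transcripts outside macrophages moved with YAP7d: in cells with lymphocyte markers the C1q genes summed to 14.4 to 891 CPM in WT and YAP3d and to 2269, 4496 and 6023 CPM in YAP7d. Their part in the Lgals1 difference was not tested. Lyve1 (chr7:110850607-110862953), a gene of midzonal and pericentral sinusoids, was 208 and 242 CPM in WT, 202, 42.3, 244 and 136 CPM in YAP3d and 571, 769 and 485 CPM in YAP7d (minus YAP3d log2 fold change 1.80, SE 0.38, adjusted p = 0.0295).

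The other named genes higher than in WT had general cellular roles. Rps2 (1.40), Rpsa (1.41) and Rpl12 (1.36) encode ribosomal proteins, Hnrnpa1 (1.94), Lsm4 (1.50) and Serbp1 (1.34) bind RNA, and Pkm (1.31) encodes the glycolytic pyruvate kinase. The chromatin protein gene Hmgb2, which rises in dividing cells, was higher by 3.04 on the log2 scale (edgeR adjusted p = 0.0448), and the per-cell counts above show that cycling transcripts came mainly from 3 of the 7 cells. The processed pseudogene Rpl27-ps3, whose reads may be shared with its parent gene, had 3 UMIs in YAP7d, which is 20.6% of WT (4.20 to 61.8%).

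By list, the YAP7d changes against WT were mostly single genes, to be read beside the 3.58% of all genes called (2.57% lower) and the all-gene median of 0.00. Of 6 tested periportal and arterial genes Ltbp4 alone was called, with a median of -1.37. Of 6 angiocrine genes Il6st and the matrix binding Igfbp7 (-1.46) were lower (median -1.43). Of 21 sinusoidal identity genes the leukemia inhibitory factor receptor Lifr was lower (-2.12), and the median was -0.61. Of 17 transcription factors Epas1 was lower (median -0.38), of 5 BMP genes Bmpr2, and of 14 capillary genes Ly6a (median 0.13). Fabp4 was the 1 gene called of 3 pericentral and venous genes (median 0.23). None of 9 interferon-stimulated genes (median -1.11), 11 MHC class I genes (-0.66), 6 VEGF receptors (-0.80), 8 guidance genes (-1.04), 3 YAP targets and 3 Hippo genes was called. Against YAP3d, Nrp1 (-1.25), Fcgr2b (-0.92) and the matrix protease inhibitor Timp3 (-1.98) were lower in addition.

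Whether these changes were larger in periportal than in pericentral cells was tested in 2691 genes with an interaction term. Hmgb2 alone was called (0.0372%; log2 fold change 3.38, SE 0.57, adjusted p = 0.00878), and DESeq2 called 0 genes, with 118 at an unadjusted p under 0.05. Without YAP7d 1, where 3 cells held 69 of its UMIs, Hmgb2 was at 2.14 and not called (adjusted p = 0.35). The interaction was -1.54 for Ltbp4 (edgeR adjusted p = 0.638), -1.41 for Il6st (adjusted p = 0.595), -2.13 for Msr1 (adjusted p = 0.297) and -2.27 for Epas1 (adjusted p = 0.372). In all sinusoidal cells, whatever their zone, 208 of 5368 genes (3.87%) differed between YAP7d and WT, 107 higher (1.99%) and 101 lower (1.88%). Ltbp4 (-2.26), Il6st (-2.18) and Epas1 (-1.72) were lower there too, and none of the 208 was called with the Gm10709 term. The changes in YAP7d were therefore not shown to be particular to the periportal zone at 7 cells.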

How the data were processed

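The deposited table holds UMI counts per gene and cell for 9 droplet-based 3′ libraries. The authors aligned the reads to mm10, counted them with Cell Ranger and analysed them with Seurat 2, per the labels. The labels name Chromium v2 and v3 kits for the study, and its methods give 3′ v2 libraries for whole liver tissue, as used here. No cell annotation was used. Library and group were taken from the cell names.

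Cells were gated as described, on the raw counts, with no mitochondrial filter, and Scrublet (scanpy 1.11.5, expected rate 0.05) doublets were kept. Counts were summed per library and class, with at least 5 cells per library in the designed comparisons. YAP7d libraries did not reach this in periportal cells, so fits with all 9 libraries and a fit in all sinusoidal cells were added after the data were seen. Genes were filtered with filterByExpr, scaled with TMM and tested in edgeR 4.0.16 (R 4.3.3; quasi-likelihood) at a Benjamini-Hochberg adjusted p of 0.05. The 20 gate genes were left out of these tests. DESeq2 1.42.0 was an alternative. The zonal comparison had the library as a block. CPM values are counts per 1000000 of the summed UMIs. Shares were compared with exact two-sided permutation tests (scipy 1.17.1) and adjusted over the 12 computed, of which 4 were on the zonal UMI share, whose values are given as a description because it uses gate genes. Positions and the promoter come from RefSeq for GRCm38.p6.

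Named genes were at most 10 in each direction, called, at a mean of at least 50 CPM in one group and apart in the libraries (in the zonal comparison, in the same direction in every library), with markers of other cells left out. Members of the gene lists were named besides. The members and lists were chosen with earlier results of these data known. Fits were tested on simulated counts. Of genes with a log2 change of 2, 99.3% of 139 were recovered in the zonal comparison. The rates were 84.2% of 57 in the fit of 9 libraries and 83.0% of 176 in sinusoidal cells. As stated above, these counts had the same spread for every gene and no library apart from the rest. The real counts differ in this, so the rates do not give the power of these fits. The part of the spread between the few YAP7d cells of a library was not tested.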

Additional observations from a re-analysis of the deposited data

Results flagged for a closer look

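The share of periportal cells among all cells was far lower in YAP3d 2 (1.36%) than in the other 3 YAP3d libraries (4.98 to 5.72%). The gap was 0.830 of the range of the group, just above Dixon's limit for 4 samples. Efnb1 in pericentral cells stood apart in YAP3d 1 (gap 0.859 of the range). H2-Aa stood apart in YAP3d 4 in periportal (0.979) and in pericentral cells (0.977), where MHC class II transcripts were abundant in that library. In all 4 of 66 tested groups of values had a library apart, and chance alone gives about 1 in 20.

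The YAP3d against WT change differed between periportal and pericentral cells for 5 genes of other cell types. The difference of the changes was 3.91 for S100a8, 3.77 for S100a9, 2.17 for Ccl5, 3.76 for Gzma and -4.14 for Dcn (log2 scale, edgeR interaction). In periportal cells the UMIs of Dcn were 4 and 264 in WT and 0, 1, 1 and 171 in YAP3d, those of Ccl5 were 6 and 89 in WT and 1, 0, 22 and 712 in YAP3d, and those of Gzma were 1 and 12 in WT and 0, 0, 0 and 171 in YAP3d. S100a9 had 2 and 23 in WT and 0, 1, 2 and 3126 in YAP3d. A pair of members held 95.7% of the Dcn UMIs, another 93.6% of those of S100a8 and another 92.9% of those of S100a9.

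The YAP7d against WT change differed between the zones for Hmgb2, by 3.38. Periportal cells held 12 and 83 UMIs of it in WT and 69, 8 and 15 in YAP7d, and pericentral cells held 265 and 410 in WT and 28, 31 and 56 in YAP7d. It was as large with DESeq2 but not called (3.48, adjusted p = 0.15). It was 2.08 and 0.98 with 5 and 7 of the 8 sinusoidal genes required, 2.51 with members thinned and 2.14 without YAP7d 1, none of them called by edgeR.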

How the results depend on the processing

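Every difference of shares among all cells and among sinusoidal cells kept its direction under every setting tried, but not its size. With at least 2 periportal UMIs required, 18 and 62 cells were members in WT, 10, 2, 8 and 83 in YAP3d and 1 in each YAP7d library, of the same numbers of sinusoidal cells. Leaving out a library gave -9.25 to -7.00 points (YAP7d minus WT), -5.22 to -2.97 (YAP3d minus WT) and -5.04 to -3.58 (YAP7d minus YAP3d) among all cells, and -9.54 to -7.07, -4.79 to -2.65 and -6.07 to -3.16 among sinusoidal cells. The zonal UMI share had no stable direction: without YAP7d 3 the difference turned to 0.598 against WT (range -9.98 to 0.598) and to 2.095 against YAP3d (range -8.48 to 2.095), and the range was -3.59 to -0.554 for YAP3d minus WT.

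Counts of called genes moved much more than directions. The zonal comparison (183) gave 92 with DESeq2, 440 with no low count filter, 94 with no C1q counts allowed, 76 with members thinned, 31 with no library block, 40 with YAP3d alone and 79 to 220 with a library left out (lowest without YAP3d 4). YAP3d against WT in periportal cells (0) gave 46 with no filter, 3 with the replicate block and 0 to 4 with a library left out. YAP7d against WT in periportal cells (46) gave 95 with DESeq2, 232 with no filter, 101 and 156 with 5 and 7 of the 8 sinusoidal genes, 14 thinned, 120 with the replicate block, 4 with the Gm10709 term and 4 to 91 with a library left out (lowest without WT 2, highest without YAP3d 4). YAP7d against YAP3d (56) gave 106 with DESeq2, 238 with no filter, 123 and 162 with 5 and 7 of the 8 genes, 17 thinned, 129 with the replicate block, 90 with only the 2 groups and 9 to 123 with a library left out (lowest without YAP3d 1). YAP7d against WT in sinusoidal cells (208) gave 336 with DESeq2, 544 and 802 with 5 and 7 of the 8 genes, 119 with no C1q counts, 820 with the replicate block, 489 with only the 2 groups, 0 with the Gm10709 term (706 at an unadjusted p under 0.05) and 2 to 689 with a library left out (lowest without WT 1). The YAP3d interaction with zone (5) gave 0 with DESeq2, 30 with no filter, 10 with at least 10 cells per library, 2 with 5 and 2 with 7 of the 8 genes, 3 with no C1q counts, 2 thinned and 1 to 23 with a library left out. The YAP7d interaction (1) gave 0 with DESeq2, 36 with no filter, 0 with 5 and 0 with 7 of the 8 genes, 2 thinned and 1 to 18 with a library left out. The cause of these shifts was not tested.

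Of the named genes, no zonal and no YAP7d gene changed direction in any setting. This was largely fixed in advance, because genes were named only where the libraries were apart or shared a direction. The zonal genes kept their call in 317 of the refits and lost it in 27, those of YAP7d against WT in 241 and 124, and those against YAP3d in 280 and 82. The interaction with YAP3d turned to 1.53 for Dcn with 5 of the 8 genes, to -0.99 for S100a8 with 7 of the 8, and for S100a9 to -1.53 with DESeq2, -0.71 with 7 of the 8 and -1.18 without WT 2 (range -1.18 to 3.99 with a library left out). Replicate numbers are shared between groups and mark no stated pairing. The correlations of deviations of same-numbered libraries were 0.21 and -0.12 in periportal cells and -0.26 to 0.45 in sinusoidal cells, and with 2 WT libraries, whose deviations are opposite by construction, they say little. Of the 20 genes named against WT, the call was lost for 18 with the Gm10709 term, for 15 without WT 2 and for 14 without YAP7d 2, and for 1 with the replicate block. Of the 20 named against YAP3d, it was lost for 13 without YAP3d 1, for 4 with the Gm10709 term and for 1 with the replicate block. The designed comparisons of YAP7d periportal cells with at least 5 cells per library could not be fitted, nor could those of all 9 libraries with no C1q counts.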

Other observations

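Sinusoidal cells of every zone gave more YAP7d cells (22, 22 and 23 per library) than the periportal gate, and YAP7d was compared with WT in them for genes not given above. With a term for the libraries with Gm10709 transcripts 0 were called, with 706 at an unadjusted p under 0.05, and the count of 208 fell to 2 and 28 without WT 1 and WT 2 and to 35, 73 and 35 without YAP7d 1, 2 and 3.

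Some genes of DNA replication were higher. Of 21 tested S phase genes 10 were called higher and none lower, with a median log2 fold change of 1.80 against -0.02 over all genes, of which 1.99% were called higher and 1.88% lower. They included thymidine kinase Tk1 (3.82), the chromatin assembly factor Chaf1b (3.53), the transcription factor E2f1 (3.09), Hells (2.43) and the replicative helicase subunits Mcm7 (2.34) and Mcm6 (1.92). Of 14 tested G2 and M phase genes Cdk1 (1.74) and Cks1b (1.67) were higher (median 0.92). The endothelin receptor Ednrb (2.73) and Kcne3 (3.68) were called among 8 tested tip cell genes (median 1.16). Of 17 tested capillary genes Cd34 (2.08) was higher and Ly6a (-1.50) lower (median 0.37).

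Of 24 tested immediate early and heat shock genes 8 were lower, beside 1.88% of all genes, with a median of -1.27 and 5 positive values. The called genes included Fos (-2.09), Fosb (-2.21), Egr1 (-1.99), Dusp1 (-1.68) and Jun (-0.90). Of 10 tested periportal and arterial genes Ltbp4 (-2.26) and Hes1 (-0.90) were lower (median -0.84). Their summed level was 2844 and 2530 CPM in WT, 1882 to 3150 CPM in YAP3d and 1444, 1431 and 1562 CPM in YAP7d. Of 11 tested pericentral and venous genes Fabp4 (1.87) was higher and none lower, with a median of -0.51 and 5 positive values. The summed level of that list was 3378 and 3161 CPM in WT, 2228 to 4458 CPM in YAP3d and 4743, 5529 and 7342 CPM in YAP7d, so that its sum and its median differ in direction. Of 12 tested angiocrine genes Gas6 (-2.14), Il6st (-2.18) and Igfbp7 (-1.30) were lower and none higher, while the median was 0.15 and 6 were positive. The Hippo kinase Lats2 (-1.60) was the 1 called gene of 12 in its list (median -0.37), and the angiopoietin receptor Tek (-1.07) the 1 of 6 VEGF and angiopoietin receptor genes (median -0.52).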
